A study of Homo sapiens with 4 samples.

Results

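The small proline-rich (SPRR) genes encode short proteins of the cornified envelope, and 9 of them were followed in Ca9-22 cells with and without knockdown of KPNA4, a karyopherin alpha that carries cargo into the nucleus. A gene probe counted as a member when its transcript belonged to SPRR1A, SPRR1B, SPRR2A, SPRR2B, SPRR2D, SPRR2F, SPRR2G, SPRR3 or SPRR4. This gave 12 of the 34127 gene probes on the array and 9 of the 19740 genes that could be named, with 2 probes each for SPRR1A, SPRR2A and SPRR2D and 1 probe for every other member. The family was chosen by its signals in control and knockdown cells, the log2 processed signals of these same 4 arrays, so the difference between the groups is given for the members as a description. Standard errors, intervals and calls from the fit over all probes are printed for them only to describe how far the cultures lay apart, and nothing is read from a member being called or not.

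SPRR proteins are made by stratified epithelia late in differentiation. Transglutaminases link them through glutamine and lysine residues to involucrin, loricrin and each other, and the linked layer replaces the plasma membrane as the cornified envelope. SPRR1 and SPRR2 genes are known as markers of squamous differentiation in skin and of its response to stress, SPRR3 belongs mainly to the mucosal epithelia of mouth and esophagus, and all of them lie together in the epidermal differentiation complex on chromosome 1.

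Ca9-22 is an established human cancer line that came from a gingival squamous cell carcinoma. RNA from 2 negative control cultures and 2 KPNA4 knockdown cultures of this line, grown in DMEM with fetal bovine serum, was hybridized to 1-color Agilent whole human genome arrays, all 4 on 1 slide. The labels call the cultures biological replicates collected 3 days after siRNA transfection, whereas the paper describes shRNA for the array experiment, so the knockdown reagent is not settled here. The replicates are cultures of 1 line, and the spread between them says nothing about other lines.

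KPNA4 itself stood at 4.02 and 4.03 on the control arrays and at 2.36 and 2.05 on the knockdown arrays, given as log2 signal over the 75th percentile of its array, the scale of every level below. It fell by 1.82 (SE 0.12, n = 2 per group, limma adjusted p = 0.00176). All 6 markers of squamous epithelium were well above background on every array, and 4 of them rose (KRT6A by 6.94, KRT14 by 1.39, CDH1 by 1.16 and KRT5 by 1.00), EPCAM fell by 0.51 and TP63 differed by -0.08. Their summed level, mostly EPCAM, was 54.8 to 55 times the 75th percentile in control cells and 55.2 in knockdown cells. Of 16 markers of fibroblasts, endothelium, leukocytes and melanocytes, 9 were well above background on all 4 arrays and 4 on none, COL3A1, PECAM1 and TYR among them. Of 12 compared, 4 rose and 6 fell. The fibroblast markers were split: COL1A1, COL1A2 and PDGFRB rose by 1.62, 1.24 and 0.56, LUM was at least 1.49-fold lower and DCN differed by -0.10. Among the leukocyte markers CD3E fell by 1.48 and CD68 by 1.37. The summed level of the 16 markers was 0.809 to 0.925 in control cells, in large part CD68, and 0.729 to 0.755 in knockdown cells. In knockdown cells CD68 stood at -2.51 and -2.34 and COL1A2 at -2.48 and -2.49. The part of these shifts in the results below was not tested. A further 8 measured genes vary between people in presence or expression. Of these, GSTT1, HLA-DRB3, ERAP2 and APOBEC3B were well above background on all 4 arrays. The other 4 stood well above background in both knockdown cultures and in neither control culture. By group means, these were at least 5.9-fold higher for HLA-DRB5, 1.59-fold for GSTM1, 1.13-fold for CHI3L2 and 1.11-fold for HLA-DRB4. The last 3 were dim in knockdown cells too, with signals of 18.5 and 19.9, 12.1 and 15.4, and 14 and 12.9. HLA-DRB4 was not called (limma adjusted p = 0.124). Whether the cultures of the groups differed in anything but the knockdown was not tested.

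SPRR3, SPRR1B and 1 of the 2 SPRR1A probes were the family's largest differences, each far higher in knockdown than in control cells, and SPRR2A followed. The remaining SPRR2 genes differed by less than 2-fold or stayed near background. Of the 12 member probes, 9 passed the filter, which asked for a signal well above background in both cultures of 1 group or the other, and these covered 6 genes. In the fit over all probes, where a call is a limma adjusted p under 0.05, 6 of the 9 probes were labeled higher, 1 lower and 2 neither, beside 20.0% higher, 28.3% lower and 48.4% in either direction over all 24198 probes compared. Since the members were chosen on this contrast, their count is not a test. The groups did not overlap for 8 of the 9 probes in the higher direction and for 1 in the lower, against 31.8% and 47.2% of all probes, or 79.0% in either direction. The median log2 difference was 0.49 over the 9 member probes and -0.09 over all probes. Of the 9, SPRR1A probe A_23_P74012 and SPRR2A probe A_33_P3260426 passed the filter through the knockdown cultures alone. The 2 control arrays lay within 0.23 of each other for each of the 9 probes, and the 2 knockdown arrays within 0.29.

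**Figure D1:**
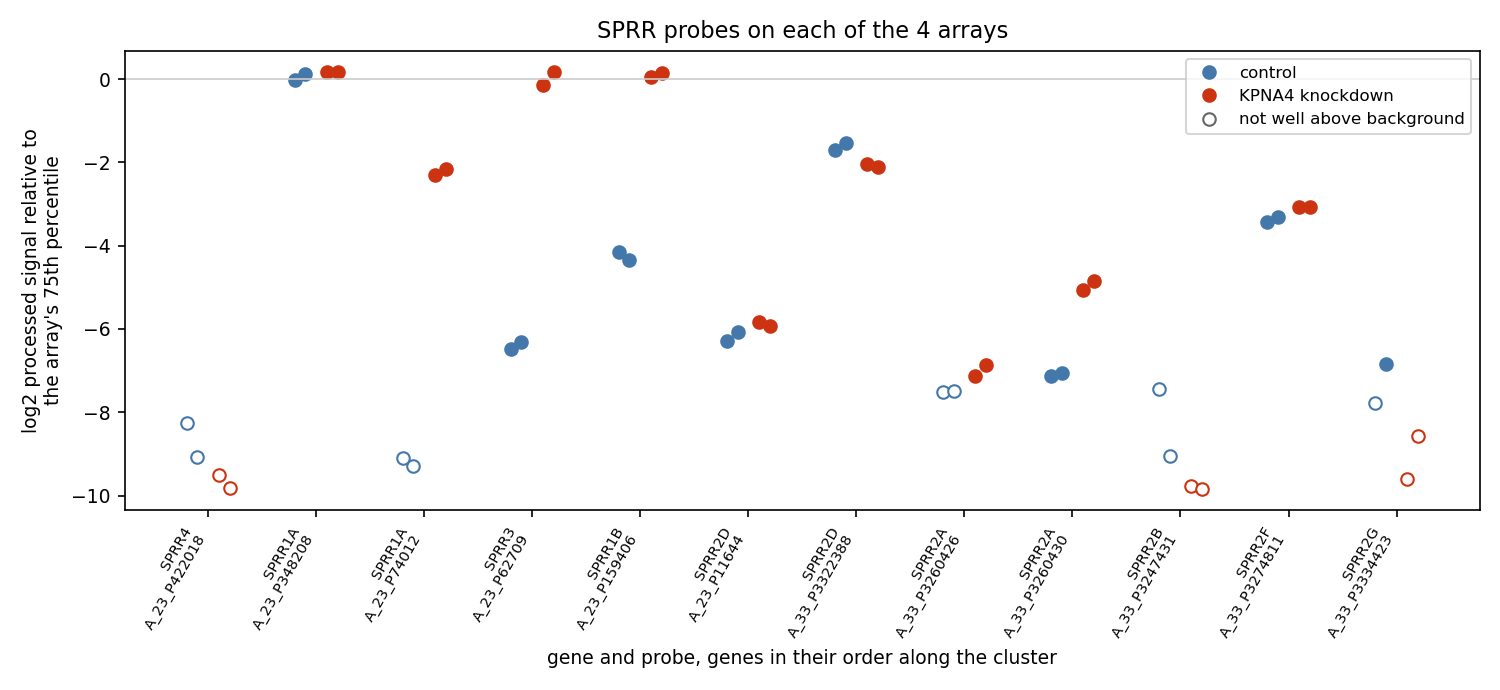
Level of each of the 12 SPRR probes on the 4 arrays, as log2 signal over the 75th percentile of its array, with control arrays and knockdown arrays in separate colors and open symbols where a spot was not well above background. SPRR3, SPRR1B and SPRR1A probe A_23_P74012 separate widely between the groups, whereas SPRR1A probe A_23_P348208 lies between -0.01 and 0.18 on all 4 arrays.

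SPRR3, the member typical of mucosal epithelium, stood at -6.49 and -6.32 in the control cultures and at -0.13 and 0.16 in the knockdown cultures. In processed signal these were 16.3 and 17.3 against 1772 and 2337, all well above background. Both knockdown cultures were thus far above both controls, by 6.42 on the log2 scale (SE 0.13, 95% confidence interval 6.07 to 6.77), or 85.5-fold, the 9th largest increase among all probes compared. SPRR1B, a cross-linked envelope precursor of the SPRR1 pair, stood at -4.14 and -4.34 in control and at 0.06 and 0.15 in knockdown cells, from signals of 83 and 68.1 to 2018 and 2323. The groups did not overlap, and the difference was 4.35 (SE 0.10, interval 4.09 to 4.61), or 20.3-fold. Calls of at least 16-fold higher were made for 0.252% of all probes. In bulk RNA, more cells that express SPRR3 and more SPRR3 RNA in each cell cannot be told apart, and the same holds for every member. When background was corrected by normexp with an offset of 50, which raises dim signals, and without 11 spots in a bright patch of the second knockdown array, the differences were 3.81 for SPRR3 and 3.54 for SPRR1B, in the same direction.

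The 2 probes of SPRR1A, the partner of SPRR1B, did not give the same picture. Probe A_23_P74012 was at background level in both control cultures, with signals of 2.7 and 2.22 and errors of 2.16 and 2.22, and it reached 393 and 468 on the knockdown arrays. It was at least 35.4-fold higher in knockdown cells, set against the dimmest signal that counted as well above background in control cells. With normexp and without the 11 spots its difference was 2.23. Probe A_23_P348208 was well above background on all 4 arrays, at -0.01 and 0.13 in control and 0.18 and 0.18 in knockdown cells. That probe differed by 0.12 (SE 0.08, interval -0.09 to 0.33) and was not called. Without scaling of the arrays it was higher by 0.62 and passed the call, in a setting where the median of all probes moved from -0.09 to 0.41.

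The gap between the SPRR1A probes was wide for this array, and its exact size depended on how dim signals were treated. Among 3718 genes with several probes compared, the median gap between the highest and lowest log2 difference of a gene's probes was 0.25, with each probe at background in 1 group set to its bound, and 244 of the genes (6.56%) had a gap of 1 or more. The gap of SPRR1A was 5.03 on this scale, and the largest of any other gene was 4.78. With normexp and without the 11 spots it was 2.09, rank 12 of 3718. With dim probes at their bound, SPRR2A had a gap of 1.77 (rank 63) and SPRR2D of 0.76. Normexp without the 11 spots gave 0.79 for SPRR2A and 0.31 for SPRR2D. Each member probe had a single spot on each array, none of the 48 member spots carried an outlier flag, and their local background lay between 23 and 48. Which transcripts each SPRR1A probe reads was not tested, since probe sequences were not used here.

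**Figure D2:**
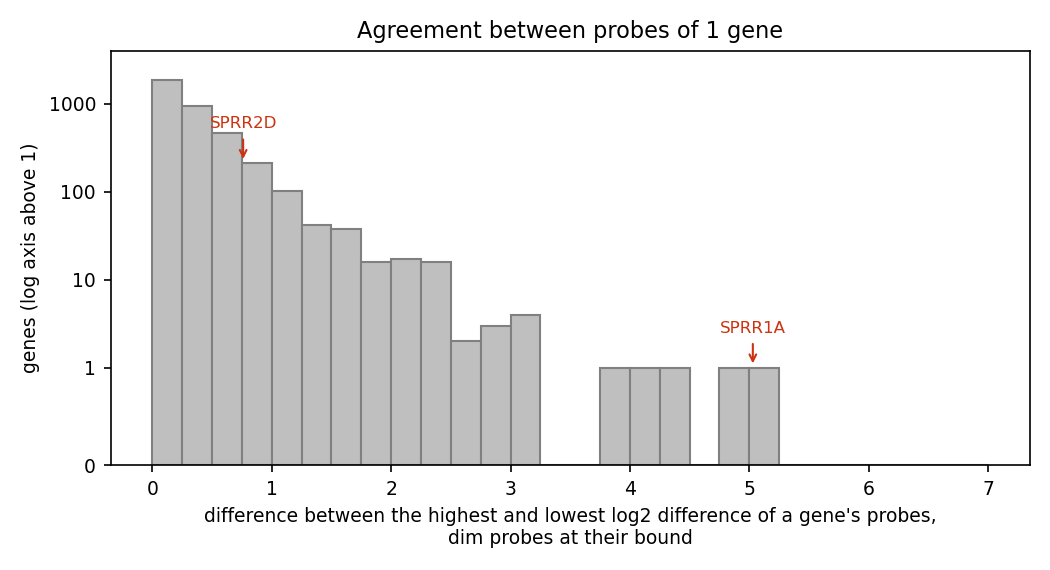
Gap between the highest and lowest log2 difference among the probes of a gene, for 3718 genes with several probes compared and dim probes at their bound, with the gene count on a log axis above 1. SPRR1A lies at 5.03, SPRR2D at 0.76 and the median gene at 0.25.

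The SPRR2 genes are close copies of each other, and the array has probes for SPRR2A, SPRR2B, SPRR2D, SPRR2F and SPRR2G among the members. Binding of RNA from one copy to the probe of another was not tested, so a value is given for a probe rather than for a copy. SPRR2A probe A_33_P3260430 stood at -7.13 and -7.06 in control and at -5.06 and -4.84 in knockdown cells, from signals of 10.4 and 10.3 to 58 and 73.4. It was well above background on all 4 arrays and higher by 2.15 (SE 0.10, interval 1.87 to 2.42), or 4.43-fold, where 5.14% of all probes were called higher by at least 2-fold. This was the one SPRR2 probe with a difference over 2-fold, and with normexp and without the 11 spots it came to 0.47.

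The other SPRR2A probe, A_33_P3260426, was well above background on the knockdown arrays alone, with signals of 13.8 and 18 against 8.04 and 7.75. By group means it was at least 1.3-fold higher, a bound that leaves out the spread between cultures. The interval of its fitted log2 difference was 0.19 to 0.79. SPRR2F stood at -3.43 and -3.32 in control and at -3.07 and -3.06 in knockdown cells, higher by 0.31 (SE 0.07, interval 0.12 to 0.49). Both were labeled higher in the fit over all probes. SPRR2A lost that label without either control array or without the second knockdown array, and SPRR2F lost it without the first control array or without either knockdown array. With normexp and without the 11 spots, SPRR2A probe A_33_P3260426 turned to -0.32.

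SPRR2D was the one member labeled lower. Its probe A_33_P3322388 stood at -1.71 and -1.54 in control and at -2.05 and -2.11 in knockdown cells, lower in both knockdown cultures by 0.45 on average (log2 difference -0.45, SE 0.09, interval -0.69 to -0.22). The unscaled signals were 447 and 474 against 469 and 484, and without scaling the difference was 0.05, so its direction depended on the scaling. Leaving out either knockdown array also ended the label. The second SPRR2D probe, A_23_P11644, stood at -6.30 and -6.07 in control and at -5.84 and -5.92 in knockdown cells, a difference of 0.31 (SE 0.10, interval 0.03 to 0.59) that was not called with all 4 arrays and was called without the second control array. The 2 SPRR2D probes thus pointed in different directions by small amounts.

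SPRR2B, SPRR2G and SPRR4 were near background throughout. SPRR2B had signals of 8.44 and 2.59 in control and 2.24 and 2.29 in knockdown cells and was not well above background on any array. SPRR4, known from skin exposed to ultraviolet light, was likewise not well above background on any array, with signals of 4.78, 2.57, 2.65 and 2.33. SPRR2G had signals of 6.69 and 12.1 in control and 2.48 and 5.56 in knockdown cells, and only the second control array was well above background. No difference was measured for these 3 genes, and an array signal at background does not show that the RNA was absent.

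In the order of the genes along chromosome 1, from involucrin to loricrin, the large differences were not evenly spread. The order was IVL, SPRR5, SPRR4, SPRR1A, SPRR3, SPRR1B, SPRR2D, SPRR2A, SPRR2B, SPRR2E, SPRR2F, SPRR2C, SPRR2G, LELP1, PRR9 and LORICRIN. SPRR1A, SPRR3 and SPRR1B, which hold the probes with the family's largest differences, are neighbors in it. SPRR1A belongs here by 1 of its 2 probes, and its other probe, A_23_P348208, differed by 0.12 and was not called. SPRR4, at background, lies on one side and SPRR2D, with probes at 0.31 and -0.45, on the other. IVL, which encodes the envelope scaffold involucrin, rose by 1.48 (SE 0.10, limma adjusted p = 0.00203, n = 2 per group). SPRR2E, which is not a member here, rose by 0.56 (SE 0.09, limma adjusted p = 0.011), and SPRR2C, a pseudogene, differed by 0.16 (SE 0.08, limma adjusted p = 0.153).

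**Figure D3:**
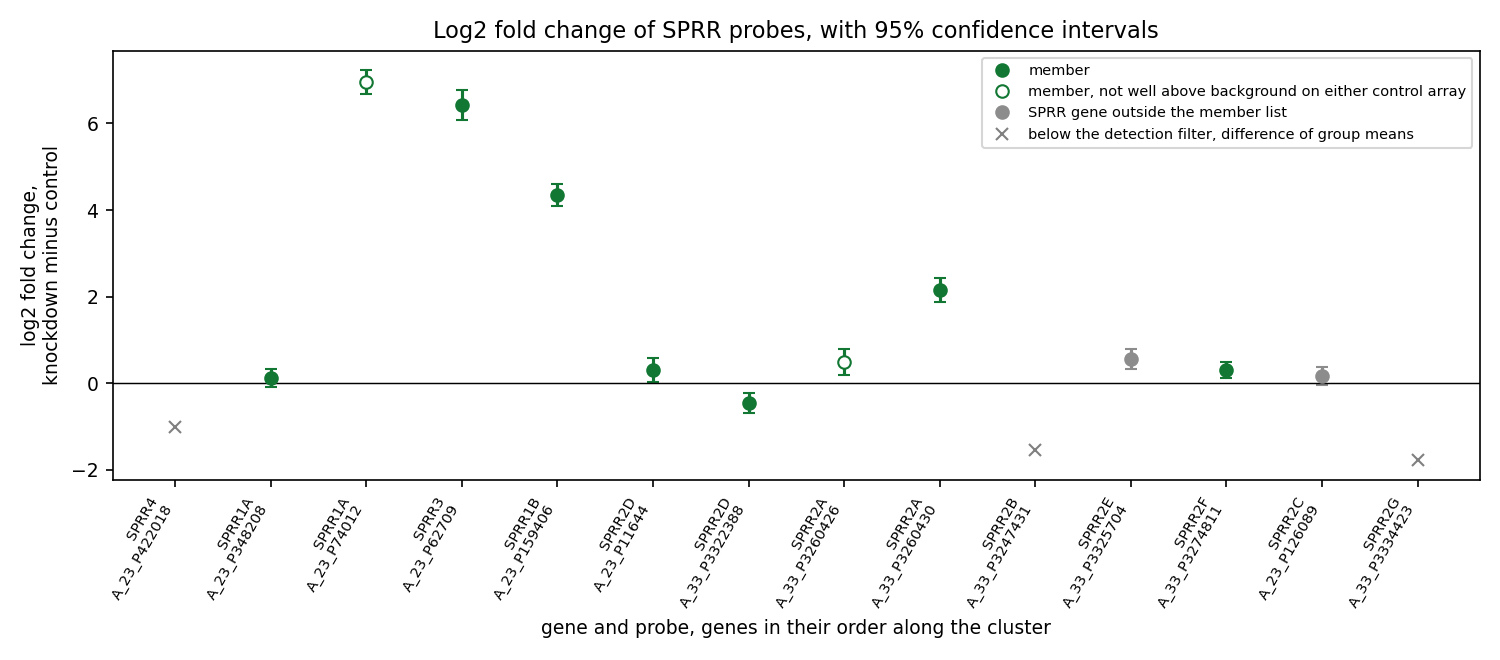
Log2 difference of knockdown minus control for each probe of the SPRR cluster, with genes in their order on chromosome 1 from SPRR4 to SPRR2G (not to scale) and 95% confidence intervals. Open circles are fitted values of probes not well above background in control cells, crosses are probes that did not pass the filter, and gray circles are SPRR2E and SPRR2C. The highest values sit over the neighbors SPRR1A, SPRR3 and SPRR1B, with the second SPRR1A probe at 0.12.

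The 250 bases before the transcription start were read for the members from RefSeq (GRCh38.p14) to show what the promoters share beside how the genes behaved. Of the 9 members, 8 matched a promoter, and SPRR2D did not. Shown are the 3 neighbors that hold the probes with the largest differences, SPRR1A by 1 of its 2 probes, then the close copies SPRR2A and SPRR2F. SPRR2A differed by 2.15 by probe A_33_P3260430 and was at least 1.3-fold higher by the group means of its other probe. The SPRR2F probe differed by 0.31. Capitals mark matches to AP-1 (TGANTCA), ETS (AGGAAG or its reverse complement), octamer (ATGCAAAT or its reverse complement) and TATA box (TATAAA) letters. The stretches are chr1:152983831-152984080 on the plus strand for SPRR1A, chr1:153001499-153001748 plus for SPRR3, chr1:153030953-153031202 plus for SPRR1B, chr1:153057513-153057762 minus for SPRR2A and chr1:153113517-153113766 minus for SPRR2F, each written 5′ to 3′ on its gene's strand.
SPRR1A: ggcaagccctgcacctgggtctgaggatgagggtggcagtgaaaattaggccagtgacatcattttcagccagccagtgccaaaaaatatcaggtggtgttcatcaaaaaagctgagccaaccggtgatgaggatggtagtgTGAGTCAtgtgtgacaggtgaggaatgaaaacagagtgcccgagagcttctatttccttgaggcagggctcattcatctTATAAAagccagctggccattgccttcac
SPRR3: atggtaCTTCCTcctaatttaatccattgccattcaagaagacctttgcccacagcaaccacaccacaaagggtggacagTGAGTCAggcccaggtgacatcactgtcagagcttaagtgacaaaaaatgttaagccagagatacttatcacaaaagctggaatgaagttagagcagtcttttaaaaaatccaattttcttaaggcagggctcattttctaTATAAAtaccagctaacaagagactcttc
SPRR1B: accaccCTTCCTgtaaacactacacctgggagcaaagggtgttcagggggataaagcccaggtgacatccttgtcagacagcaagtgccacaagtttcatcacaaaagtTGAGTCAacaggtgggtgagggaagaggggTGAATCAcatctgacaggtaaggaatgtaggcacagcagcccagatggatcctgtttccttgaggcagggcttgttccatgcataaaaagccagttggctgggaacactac
SPRR2A: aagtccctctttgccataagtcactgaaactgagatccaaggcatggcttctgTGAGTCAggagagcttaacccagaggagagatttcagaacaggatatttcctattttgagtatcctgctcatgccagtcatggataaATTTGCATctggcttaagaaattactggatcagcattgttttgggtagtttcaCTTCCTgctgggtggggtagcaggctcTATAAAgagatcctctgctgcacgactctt
SPRR2F: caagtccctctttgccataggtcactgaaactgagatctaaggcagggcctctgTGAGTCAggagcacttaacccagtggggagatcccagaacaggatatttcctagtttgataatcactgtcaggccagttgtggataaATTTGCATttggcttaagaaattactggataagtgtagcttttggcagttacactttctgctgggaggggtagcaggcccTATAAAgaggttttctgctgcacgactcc

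AP-1 is the dimer of Fos and Jun proteins that is known to act on SPRR promoters. Its letters were found in 6 of the 8 member promoters, and in 6.57% of the 35116 promoters in the table. They began 108 bases before the start in SPRR1A, 170 in SPRR3, 111 and 141 in SPRR1B, 197 in SPRR2A, 196 in SPRR2F and 180 in SPRR2G, and SPRR2B and SPRR4 held none in this window. SPRR2G, which was near background, and SPRR2F, with its small difference, therefore held the same letters as SPRR3 and SPRR1B. The TATA box letters were in 7 of 8 member promoters against 10.7% of all, and SPRR1B was without them. The octamer letters, known from POU-domain factors, were found in SPRR2A, SPRR2B and SPRR2F, 3 of 8, against 1.63% of all. The ETS letters were in 5 of 8 (SPRR1B, SPRR3, SPRR2A, SPRR2B and SPRR4) against 28.7% of all. The grainyhead letters AACCNGTT and the letters CCCAAACCA, part of the motif of RREB1, were in 0 of 8 member promoters and in 1.49% and 0.367% of all. Both strands were searched, and no matches overlapped. The motifs were chosen with earlier results of these data known.

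SPRR2A and SPRR2F had the most alike promoters, with 85.7% identity over all columns of their alignment, gaps included. SPRR1A and SPRR1B followed with 65.8%, SPRR2B and SPRR2F had 62% and SPRR2A and SPRR2B 59.9%. The other pairs, SPRR3 with every other member among them, lay between 47.1% and 56.4%. SPRR2A probe A_33_P3260430 differed by 2.15 on the log2 scale and the SPRR2F probe by 0.31. The other SPRR2A probe, A_33_P3260426, was at least 1.3-fold higher in knockdown cells by group means. With normexp and without the spots in the bright patch, these probes came to 0.47, 0.08 and -0.32, in that order. Whether SPRR2A and SPRR2F behaved differently as genes was not tested, since binding across copies was not tested. A match of letters is a description of the sequence and not a measured binding site.

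**Figure D4:**
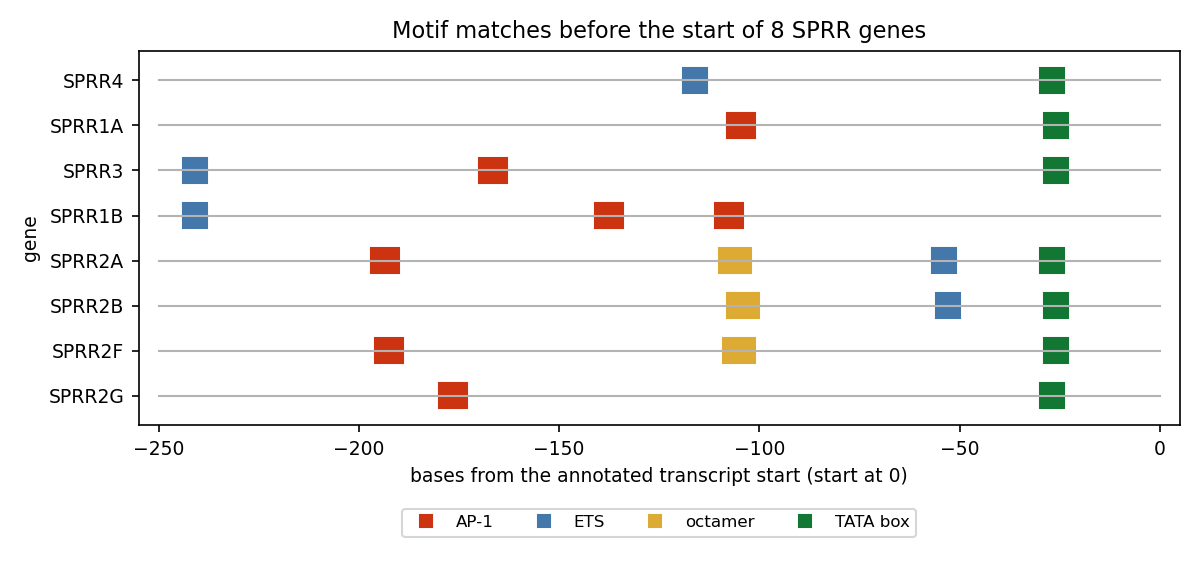
Positions of motif letters in the 250 bases before the start of each of 8 SPRR genes, with the distance to the start in bases on the horizontal axis and 1 line per gene. AP-1 letters appear in 6 of the 8 promoters, at 108 to 197 bases before the start.

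Cornified envelope partners outside the SPRR family were counted by the brightest probe of each gene. The list held proteins that are cross-linked with SPRR proteins or process the envelope, and also keratins such as KRT13 and KRT4 and the inhibitor SLPI. Of 30 genes, 26 were compared, and 13 rose, 5 fell and 8 were not called, with a median log2 difference of 0.46. The list was chosen with earlier results of these data known, so its count is not a test. Over all 15114 named genes compared in this way, 23.2% rose and 27.3% fell, with a median of -0.06. For the SPRR genes themselves the same count was 4 higher, 1 lower and 1 not called of 6, with a median of 1.23 and with SPRR1A counted by probe A_23_P348208. The kallikrein proteases KLK5 and KLK7, which cut corneodesmosomes, were among the largest: KLK5 rose by 7.80 (limma adjusted p = 2.83e-04), and KLK7, not well above background in control cells, was at least 9.08-fold higher. KRT13, the mucosal suprabasal keratin, rose by 6.07 (limma adjusted p = 2.29e-04), and the envelope protein sciellin (SCEL) rose by 5.18 (limma adjusted p = 3.38e-04). TGM1, the transglutaminase that links SPRR proteins into the envelope, stood at -2.88 and -3.17 in control and -1.62 and -1.29 in knockdown cells and rose by 1.57 (SE 0.16, limma adjusted p = 0.00444). The lipoxygenase ALOXE3 fell by 1.37, the protease inhibitor CSTA by 0.63 and the ceramide synthase CERS3 by 0.56 (limma adjusted p = 0.00239, 0.00421 and 0.0142).

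The other genes of the epidermal differentiation complex, the SPRR genes' neighbors on chromosome 1, moved in both directions. Of 51 genes, 49 had a probe and 31 were compared, and 9 rose, 7 fell and 15 were not called, with a median of -0.03 beside -0.06 over all named genes. At least 2-fold, 7 of the 31 rose and 1 fell, beside 933 and 438 of all 15114. These counts are no test either, since this list was also chosen with earlier results known. The calcium-binding proteins S100A9, S100A14 and S100A8 rose by 3.13, 2.71 and 2.43 (limma adjusted p = 0.00154, 2.83e-04 and 0.00867), and TCHHL1 was at least 2.53-fold higher. LCE3D, a late envelope protein, fell by 1.07 and CRCT1 by 1.00 (limma adjusted p = 0.00136 and 0.0154). FLG, which encodes filaggrin, was not well above background in knockdown cells and was at least 1.62-fold lower. Without scaling, 19 of these genes were called higher and 3 lower.

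Transcription factors reported to act on SPRR promoters or on squamous differentiation were listed as well, and 36 of 39 were compared. Of these, 15 rose, 6 fell and 15 were not called, with a median of 0.24. This list, too, was chosen with earlier results of these data known, so its count is not a test. SOX2, a factor of squamous progenitors, rose by 6.93 (limma adjusted p = 1.83e-04), CEBPA by 2.26 (limma adjusted p = 3.86e-04), KLF5 by 1.88 (limma adjusted p = 0.002) and OVOL1 by 1.76 (limma adjusted p = 6.76e-04). ETS1 and the AP-1 subunit FOSL1 fell by 1.74 and 1.36 (limma adjusted p = 5.66e-04 and 0.00221), and STAT3 fell by 0.72 (limma adjusted p = 0.00497). Factors of the AP-1 and ETS classes, whose motifs were searched in the SPRR promoters, moved in both directions. Among other AP-1 subunits JUN fell by 0.56, JUND and FOS rose by 0.61 and 0.36, and FOSL2, FOSB and JUNB were not called. Among other ETS factors ELF3, EHF and ETS2 rose by 0.66, 0.49 and 0.45, and SPDEF was not called. Of the grainyhead factors, GRHL3 and GRHL1 rose by 1.60 and 1.30, and GRHL2 was not called. Among the POU-domain factors POU3F1 fell by 0.67, and POU2F1 and POU2F3 were not called. RREB1, a zinc finger factor and the KPNA4 cargo of interest in this work, rose by 0.50 by its brightest probe (SE 0.06, limma adjusted p = 0.00583), and its other 2 probes were not called. Without scaling, 27 of the factors were called higher and 2 lower.

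**Figure D5:**
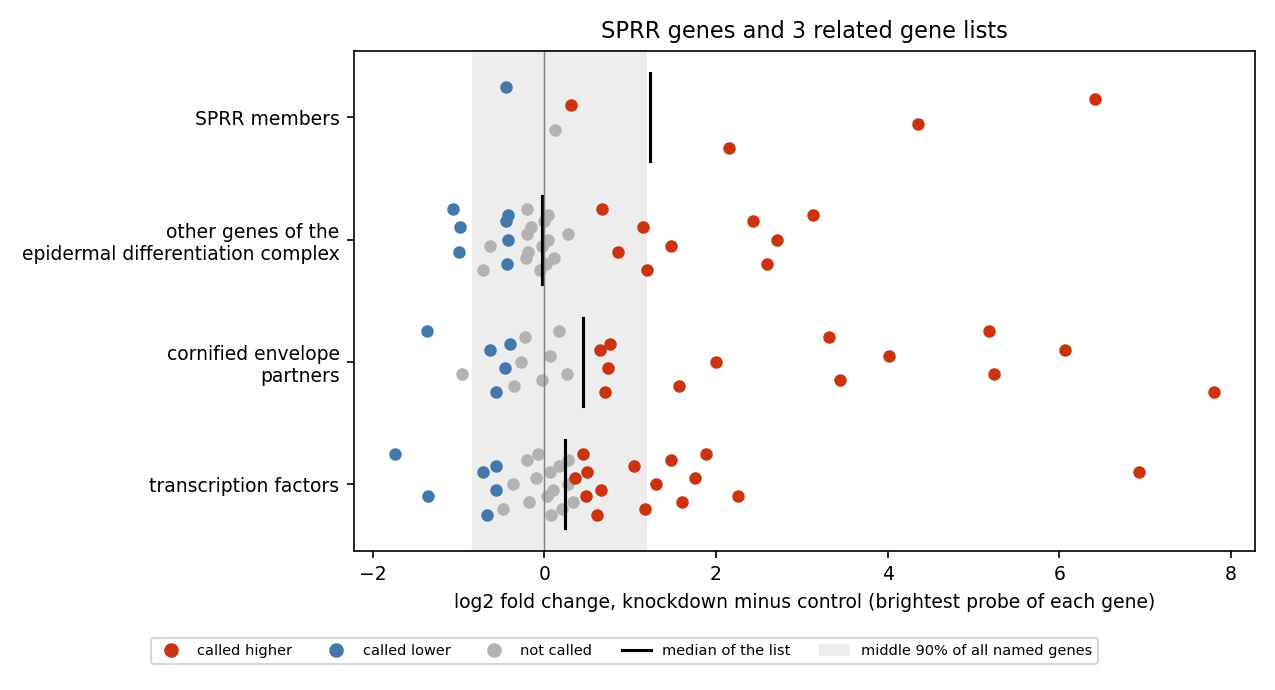
Log2 difference of knockdown minus control for the brightest probe of each SPRR gene compared and of each gene in 3 related lists, colored by call, with the median of each list as a bar and the middle 90% of all named genes (-0.83 to 1.18) shaded. For genes not above background in 1 group the fitted value is plotted. SPRR3 at 6.42 and SPRR1B at 4.35 lie far outside the shading, as do several genes of each other list. KLK5 at 7.80 and SOX2 at 6.93 lie above both.

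SPRR3 was also used as a reference, and the 22942 probes well above background on all 4 arrays were ranked by the root mean square distance of their 4 centered values from its own. The closest were VTCN1, an immune checkpoint ligand, at a distance of 0.17, and KRT13 at 0.18. KRT6A, a keratin of stressed and oral epithelium, followed at 0.28, SOX2 at 0.29 and AKR1B10, an aldo-keto reductase, at 0.41. Their differences lay between 5.62 and 6.94, around the 6.42 of SPRR3. Likeness here is over 4 arrays in 2 groups, so it amounts to a difference of about the same size.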

How the data were processed

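Total RNA of 2 control and 2 KPNA4 knockdown cultures of Ca9-22 cells was labeled with Cy3 and hybridized to 4 Agilent arrays on 1 slide. The authors deposited the output of Feature Extraction 11.0.1.1 for each array, whose processed signal is an intensity already subtracted for background. They also deposited a table that holds this signal as a ratio to the 75th percentile of the array for 24209 probes, which was used as an alternative.

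Control and outlier-flagged spots were dropped, replicate spots of 1 probe averaged, and log2 values expressed over the 75th percentile of the array (signals of 1381 to 2096). Per array, 70.2% to 71% of the 34127 probes were well above background, and no gene spot was saturated. Probes were named by transcript accession through RefSeq (GRCh38.p14), which matched 25771 probes. Since the arrays' grid refers to another build, that table gave names and gene order, and coordinates are given for promoters alone.

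Probes well above background on both arrays of a group were tested between the groups by limma 3.58.1 under R 4.3.3 (lmFit, eBayes, Benjamini-Hochberg over 24198 probes, threshold 0.05). There is no read depth for arrays, and 2 arrays per group limit the precision. The p-values set the difference between the groups against the spread between these cultures, with the variance of each probe moderated over all probes. Where every array of 1 group was not well above background, a bound was computed: the bright group's mean against, per dim array, the higher of the probe's own signal and the dimmest signal that passed. This bound, written as "at least", compares group means and leaves out the spread between cultures. The fit was tested on simulated data with 50 changed probes at each of 4 log2 differences. It recovered 10 at 0.5, 45 at 1, 49 at 2 and 44 at -1, and 11 unchanged probes were called. Changes of 0.5 were thus mostly missed.

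The members, the gene lists and the motifs were chosen with earlier results of these data known. Named are every member probe, KPNA4, RREB1, the 4 largest called changes up and the 3 largest down in each list, provided that the knockdown arrays lay on 1 side of both controls, and the 5 probes most like SPRR3. IVL, TGM1, SPRR2E, SPRR2C, the markers of cell types and the genes that vary between people were named after their values were seen. The same holds for the other AP-1 and ETS factors and for the grainyhead and POU-domain factors. Alternatives covered scaling, background correction, filters, thresholds, a replicate block, probe choice and leaving out each array.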

Additional observations from a re-analysis of the deposited data

How the results depend on the processing

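The directions of SPRR3, SPRR1B, SPRR1A probe A_23_P74012 and SPRR2A probe A_33_P3260430 held under every alternative that gave them a value, with SPRR3 between 3.81 and 6.92 and SPRR1B between 3.51 and 4.85. With 2 arrays per group, differences of the size of SPRR2D and SPRR2F were near the limit of what could be called, and signals near background carry no order. Normexp on all spots left 0 calls in limma in every group of genes, with 1208 probes and 3 member probes at an unadjusted p under 0.05. KPNA4 then came to -1.96 (adjusted p = 0.657) and SPRR2D probe A_33_P3322388 to 0.01. On the second knockdown array 11 spots had a local background above 10 times its median, up to 51625, against at most 59 on the other arrays. Without them, an alternative chosen after seeing the data, normexp called 11189 probes lower, with 2 SPRR probes, 12 epidermal differentiation complex genes, 10 envelope partners and 11 transcription factors lower, KPNA4 was at -1.77, SPRR2A probe A_33_P3260426 at -0.32 and SPRR2D probe A_23_P11644 at -0.10. Without scaling, 14115 probes were called higher and 1258 lower, with the complex at 19 higher and 3 lower, the factors at 27 and 2, 1 envelope partner and 0 SPRR probes lower, and SPRR2D probe A_33_P3322388 at 0.05. At an adjusted p under 0.01, 2563 probes were higher and 2809 lower, with 3 complex genes, 3 envelope partners and 0 SPRR probes lower. At 2-fold with no test, 1277 probes were higher and 807 lower, with 0 SPRR probes, 1 complex gene and 1 envelope partner lower, and 9 factors higher and 2 lower. With the mean over a gene's probes, 4438 were lower, and 0 for SPRR. Leaving out 1 array gave 2640 to 4422 probes higher and 3048 to 5653 lower, 4 to 6 SPRR probes higher and 0 to 1 lower, 4 to 7 complex genes lower and 2 to 5 envelope partners lower, with KPNA4 at -1.97 to -1.67. A group left with 1 array was assumed to vary like the other group. The replicate numbers did not pair the cultures (correlation of deviations -0.04). With the replicate number as a block, 3964 probes were higher and 5429 lower, KPNA4 stayed at -1.82 (adjusted p = 0.00562), 5 SPRR probes were higher and 1 lower, SPRR2F losing its call, 9 complex genes were higher and 6 lower, 13 envelope partners higher and 5 lower, and 15 factors higher and 7 lower.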
